A study of Mus musculus with 4 samples.

Results

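The cells described here are fibroblasts of the mouse colon that came through a sort for CD45, the surface protein (gene Ptprc) that marks leukocytes. Single-cell RNA-seq on the 10x droplet platform was run on 4 such libraries from wild-type C57BL/6 mice. 2 libraries came from control mice and 2 from mice restrained daily for 7 days, and each library is a separate sample. All groups share the wild-type genotype, and the number of animals behind a library, their age and any pooling are not given in the sources used here. A barcode was kept with at least 500 unique molecular identifiers (UMIs, counted transcript molecules), at least 200 genes and at most 10% mitochondrial UMIs. Fibroblasts were chosen by their own measured values: at least 5 UMIs of Col1a1, Col1a2, Col3a1 and Dcn together, at most 1 UMI of the Cd3 genes, at most 1 of the Cd79 genes and at most 2 of the C1q genes. The rule found 237 fibroblasts among 20428 kept barcodes. Control library 1 held 225 of them, 8.84% of its 2546 kept barcodes (95% Clopper-Pearson interval 7.76 to 10.0%). Control library 2 held 5 of 5436 kept barcodes (0.0920%), stress library 1 held 6 of 8319 (0.0721%) and stress library 2 held 1 of 4127 (0.0242%). Since nearly all came from 1 library, their transcriptome is described from control library 1 and no comparison of stress with control is made. Intervals cover counting error only, and no test was run, because the same UMIs chose the cells.

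Fibroblasts lay down and remodel the collagen scaffold of the gut wall. In the colon they fall along an axis from crypt base to surface. Cells close to the surface epithelium carry much PDGF receptor alpha (Pdgfra) and secrete BMPs, which favour epithelial differentiation. Cells below the crypts, called trophocytes where they carry Cd81, secrete the BMP antagonist gremlin (Grem1) and R-spondins, which favour stem cells. Fibroblasts of the submucosa and around vessels carry dermatopontin (Dpt), Cd34 and Pi16.

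In control library 1 most fibroblasts lay far from the threshold. They held 7 to 290 UMIs of the 4 matrix genes (median 103), while the other barcodes had a median of 0. At the edge, 2 fibroblasts of control library 1 held under 10 such UMIs (7 of 998 and 8 of 541 UMIs) and 3 barcodes just outside held 3 or 4 (3 of 1290, 3 of 1321 and 4 of 593). The 5 cells of control library 2 lay nearer to it, with 5 to 177 matrix UMIs (median 15), and 1 was at the threshold with 5 of 624 UMIs. In control library 1 a further 9 barcodes with 5 or more matrix UMIs were left out for their Cd3, Cd79 or C1q UMIs. Another 20 that met the gene rule were over the mitochondrial limit. The leukocyte genes left out 0 such barcodes in control library 2, 2 in stress library 1 and 9 in stress library 2. The fibroblasts of control library 1 carried 509 to 9060 UMIs (median 4850) and a median of 2001 genes, against medians of 2796 UMIs and 1123 genes in the other kept barcodes of that library. Their median mitochondrial share was 3.796%, against 4.86%. They made up 1050801 of its 12516545 UMIs (8.40%). The 4 libraries hold 3 to 19 cell barcodes in common per pair, and none of these was a fibroblast in both.

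**Figure D1:**
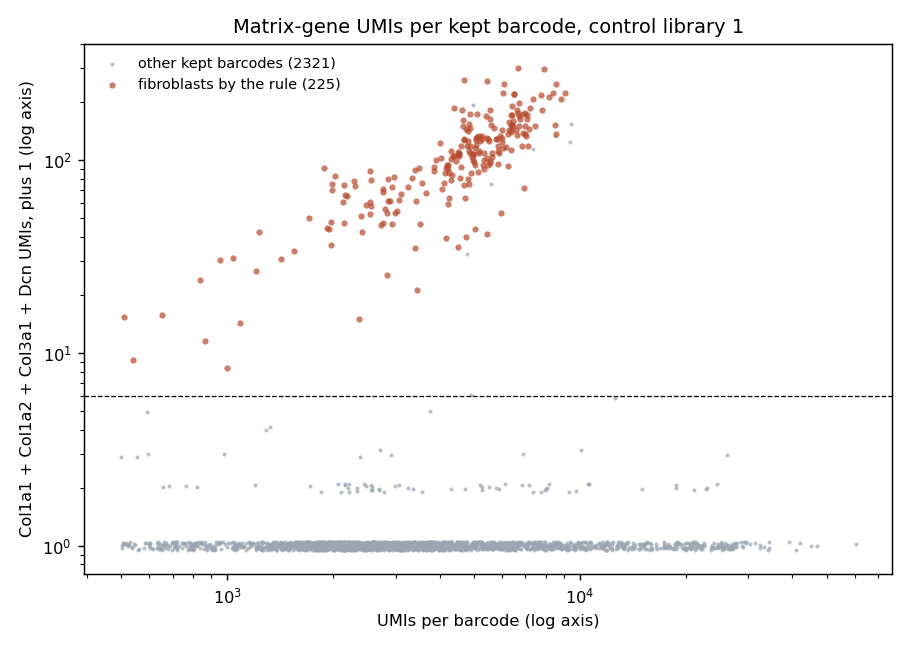
Matrix gene UMIs (Col1a1, Col1a2, Col3a1 and Dcn summed, vertical axis) against all UMIs (horizontal axis) per kept barcode of control library 1. Both axes are logarithmic, and 1 is added to the matrix UMIs. The fibroblasts of control library 1 hold a median of 103 matrix UMIs, far above the threshold of 5.

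Little leukocyte RNA was found in the fibroblasts of control library 1 despite the sort. Ptprc, which encodes CD45, gave 4 UMIs in 4 of 225 fibroblasts (1.78%), against 91.2% of 441 T cells, 69.7% of 1090 B cells and 66.0% of 238 macrophages of the same library. Those classes were taken by UMIs of the Cd3, Cd79 and C1q genes, and their median depths were 3105, 2322.5 and 4106 UMIs. With every barcode thinned at random to 1000 UMIs (218 of the fibroblasts were deep enough), the shares with Ptprc were 0.459% of fibroblasts, 66.0% of T cells, 40.7% of B cells and 45.2% of macrophages. A list of 7 leukocyte genes summed to 20.9 CPM (UMIs of the list per 1000000 UMIs of all genes) in fibroblasts and 5499 CPM in the other barcodes, and 205 fibroblasts had none of its UMIs. Of leukocyte genes outside the rule, Csf1r and Adgre1 of macrophages, Ms4a1 of B cells, and Trac and Trbc2 of T cells were at 0. A count of 0 allows up to 1.33% of these cells with a UMI and sets no limit on cells that express a gene. Each limit given for a count of 0, here and below, is 3 cells or 3 UMIs over the total. It is an approximate bound and lies below the upper end of the exact intervals. The Cd3, Cd79 and C1q genes were capped by the rule itself. Immunoglobulin kappa RNA (Igkc) was found in 61.3% of fibroblasts, 62.8% of T cells and 61.8% of macrophages (19.7%, 30.7% and 26.6% after thinning). The fibroblasts' share was no higher than in those classes and is not read as expression. Dcn, a gene of the rule and so fixed in the fibroblasts, was found in 0.227% of T cells, 0.917% of B cells and 5.04% of macrophages. Scrublet, a doublet caller, marked 5 of the 225 fibroblasts.

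Markers of other stromal cells were sparse, and where they were high they sat in few cells. Of 6 blood endothelial genes, Pecam1, Cdh5, Kdr, Flt1 and Emcn were at 0 and Plvap gave the list's 28.6 CPM (64.5 CPM in the other barcodes). The lymphatic endothelial list summed to 2.86 CPM and the enteric glial list to 3.81 CPM, with Sox10, Gfap and Cdh19 at 0. Kit of the interstitial cells of Cajal was at 0 too. Its list of 3 genes, led by Etv1, still summed to 46.6 CPM against 25.7 in the other barcodes. A UMI of that list was found in 38 fibroblasts, with at most 3 in a cell. Notch3 of pericytes was at 0, and the pericyte list summed to 96.1 CPM against 1.48. Most of that came from Pdgfrb, which fibroblasts and pericytes share, at 76.1 CPM. All 35 UMIs of the mesothelial list lay in 1 barcode of 5969 UMIs, with 16 UMIs of Upk3b, 9 of Wt1, 7 of Msln and 3 of Lrrn4. That barcode also held 18 UMIs of Krt18 and 12 of Krt19, none of Epcam, Dpt or Pdgfra, and 50 matrix UMIs. The smooth muscle list summed to 504 CPM, and 1 barcode of 5464 UMIs held 124 of its UMIs, among them 47 of Acta2, 15 of Myh11 and 11 of Actg2. 8 fibroblasts held 10 or more smooth muscle UMIs, and 4 held more of them than of the matrix genes. The fibroblast list itself (Dcn, Col1a1, Col3a1, Pdgfra, Dpt) stood at 22599 CPM against 74.6 CPM in the other barcodes, as the rule required.

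**Figure D2:**
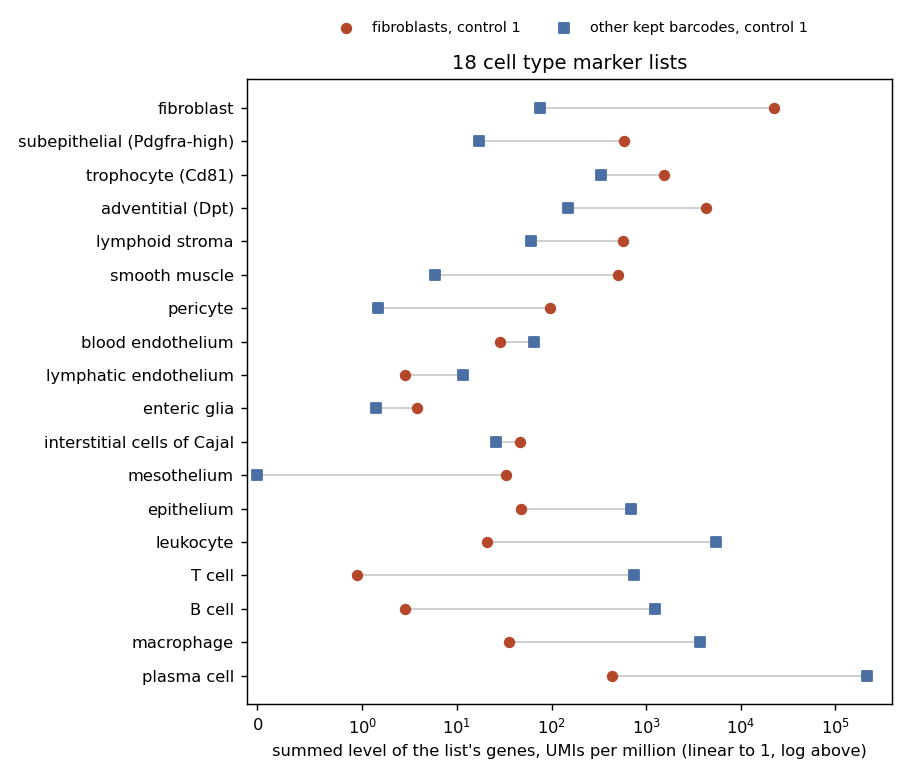
Summed level of each cell type marker list in the fibroblasts and in the other kept barcodes of control library 1, in CPM on a log axis (linear near 0). The fibroblast, adventitial, trophocyte, subepithelial and smooth muscle lists are higher in the fibroblasts, and the leukocyte, T cell, B cell, macrophage, plasma cell and epithelial lists are lower; the rule itself set the Cd3, Cd79, C1q and 4 matrix genes within them.

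The stretches of DNA in front of 4 genes that the description turns on are shown here: Pdgfra and Dpt because they are fibroblast markers outside the selection rule, and Cd34 and Procr (the endothelial protein C receptor) because they lie on opposite sides of the division described further down. Each runs 5′ to 3′ on the sense strand from 250 bases before to 50 bases after the transcript start in RefSeq (GRCm38.p6). Their positions are chr5:75152001-75152300 for Pdgfra, chr1:164796413-164796712 for Dpt, chr1:194938571-194938870 for Cd34 and chr2:155750967-155751266 for Procr, all on the plus strand. Capitals mark a match to the TATA box TATAAA in Dpt and to the AP-1 motif TGANTCA in Procr.
Pdgfra: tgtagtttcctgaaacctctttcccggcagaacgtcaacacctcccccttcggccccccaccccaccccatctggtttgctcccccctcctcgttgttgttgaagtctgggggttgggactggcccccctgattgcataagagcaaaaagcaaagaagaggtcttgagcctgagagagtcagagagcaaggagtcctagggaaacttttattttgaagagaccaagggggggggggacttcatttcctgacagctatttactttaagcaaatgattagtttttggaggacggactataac
Dpt: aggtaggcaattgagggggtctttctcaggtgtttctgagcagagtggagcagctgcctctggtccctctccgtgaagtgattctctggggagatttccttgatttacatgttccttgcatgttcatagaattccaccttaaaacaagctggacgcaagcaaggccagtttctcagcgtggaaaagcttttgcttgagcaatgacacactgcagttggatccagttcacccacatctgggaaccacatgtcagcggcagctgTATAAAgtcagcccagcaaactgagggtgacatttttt
Cd34: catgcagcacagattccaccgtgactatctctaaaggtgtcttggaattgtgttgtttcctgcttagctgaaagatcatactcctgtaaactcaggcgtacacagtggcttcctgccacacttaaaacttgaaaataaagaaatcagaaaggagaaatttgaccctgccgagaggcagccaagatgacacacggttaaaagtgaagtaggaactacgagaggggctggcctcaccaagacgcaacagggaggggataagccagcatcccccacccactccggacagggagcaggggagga
Procr: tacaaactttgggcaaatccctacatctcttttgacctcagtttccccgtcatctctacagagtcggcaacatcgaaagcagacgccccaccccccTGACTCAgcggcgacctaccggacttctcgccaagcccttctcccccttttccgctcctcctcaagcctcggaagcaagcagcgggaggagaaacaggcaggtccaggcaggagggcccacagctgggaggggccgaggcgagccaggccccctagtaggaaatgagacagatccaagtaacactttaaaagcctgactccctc
The windows were searched on both strands for TATAAA, for TGANTCA and for the forkhead core TAAACA, which do not overlap in the matches shown. The Dpt match begins 12 bases after the annotated start. The Pdgfra and Cd34 windows hold none of the 3 motifs. Of the 20 genes with the largest ratio to other barcodes (named below), 12 have a window in the table, 14 windows in all because some genes have several starts, and these can overlap. TATAAA was found in 6 of these 14 windows (42.9%) and in 4473 of all 32851 windows (13.6%). The 6 windows belong to 5 genes, Dpt, Lrrc17, Meg3, Svep1 and Tnc. The 2 Tnc windows overlap and hold the same match, so it is counted more than once. TGANTCA was found in 1 (Tnxb, 7.14%) against 7.81% of all windows, and TAAACA in 2 (Ctsk and Meg3, 14.3%) against 13.4%. The 3 BMP ligand windows in the table held none of these letters.

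Levels are given as CPM over the summed UMIs of the 225 fibroblasts of control library 1, beside the same sum over the other kept barcodes of that library. A UMI counts 1 molecule at 1 end of a transcript, so levels are not scaled by gene length. Of 9514 genes at 10 CPM or more in either sum, 1878 (19.7%) were at least 4-fold higher in the fibroblasts and 921 (9.68%) at least 4-fold lower, and the median log2 ratio was 0.54. The 4 genes of the plasma cell list (Jchain, Igkc, Igha and Mzb1) took 216071 CPM of the other barcodes and 439.7 CPM of the fibroblasts. Other immunoglobulin genes are not counted in these sums. Because the same cells were chosen by their matrix UMIs, these counts are a background and nothing is read from them. In the programme counts below, "higher" and "lower" mean past this 4-fold limit, and each median log2 ratio is over the genes of a list at 10 CPM or more. Listed genes under 10 CPM in both sums could not be called. A count out of a whole list is therefore not a share to set beside the 19.7%.

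Matrix genes had the highest summed level of the programme lists: proteoglycans and matrix glycoproteins other than Dcn stood at 22581 CPM together, against 168.6 CPM in the other barcodes. The 4 genes of the rule, the proteoglycan decorin (Dcn, chr10:97479609-97518143) and the collagen chains Col3a1 (chr1:45311538-45349706), Col1a1 (chr11:94936224-94953042) and Col1a2 (chr6:4504814-4541544), stood at 12294, 7072, 1937 and 1922 CPM, against 38.1, 26.6, 6.89 and 8.81 CPM. Positions are those of GENCODE vM21 on GRCm38. Of the 7 other fibrillar and fibril-associated collagens 6 were higher (median log2 ratio 7.43), and Col11a1 was at 0. Col5a2, which sets fibril diameter with Col5a1, stood at 500.6 CPM against 2.88, and the fibril-linking Col14a1 at 382.6 against 2.70. Of 14 basement membrane and network collagen genes 11 were higher (median 7.15), led by the microfibril chains Col6a1 (994.5 against 3.66 CPM) and Col6a2 (658.5 against 2.88). The basement membrane chain Col4a1 followed at 479.6 against 6.11 CPM.

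Proteoglycans and matrix glycoproteins held 28 higher genes of 29 without Dcn (median log2 ratio 7.65), with Fmod the exception at 0. Sparc, a collagen chaperone of the matrix, was found in 224 of 225 fibroblasts and stood at 3713 CPM against 23.6. Periostin (Postn) was at 2333.5 CPM, biglycan (Bgn) at 2310 and lumican (Lum) at 1356. Fibronectin (Fn1) was at 1317 CPM against 52.5 in the other barcodes, where macrophages can also make it. The elastic fibre genes Eln and Fbn1 stood at 556.7 and 494.9 CPM. Of 15 collagen maturation enzymes 13 were higher (median 6.34), among them the collagen chaperone Serpinh1 (946.9 against 5.41 CPM), the procollagen enhancer Pcolce (541.5 against 2.53) and the cross-linking oxidase Loxl1 (300.7 against 1.047). Of 18 matrix proteases and inhibitors 15 were higher and 1 lower (median 6.11). The gelatinase Mmp2 was at 521.5 CPM and the inhibitor Timp3 at 729 CPM, both found in more than 3 of every 4 fibroblasts (84.0% and 76.4%), while the stromelysin Mmp3 gave 20 UMIs in 5 cells.

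Among genes at 100 CPM or more, leaving the rule's genes aside, the 20 with the largest ratio to the other barcodes were Meg3, Tnc, Sfrp2, Ereg, Mfap5, Tnxb, Wfdc1, Lrrc17, Pdgfra, Hspb8, Sod3, Osr1, Dpt, Ctsk, Ctgf, Antxr1, Svep1, Fstl1, Clec3b and Pcsk6. Their ratios ran from 1406 for Meg3, a long noncoding RNA, to 358 for Pcsk6, a proprotein convertase. The set mixes matrix proteins (Tnc, Mfap5, Tnxb, Svep1), secreted signals and their modulators (Sfrp2, Ereg, Fstl1) and the transcription factor Osr1. The 10 highest genes past the 4-fold limit were Gsn (15156 CPM), Dcn, Gm42418, Col3a1, Igfbp7 (5357), Fos (5199), Adamdec1 (4356), S100a6 (4294), Sparc and Igfbp4 (3128). Gm42418 overlaps ribosomal RNA sequence, and the 2 cannot be told apart here. Adamdec1, a secreted metalloprotease of the gut mucosa, was found in 200 of the 225 cells.

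Pdgfra (chr5:75152292-75198215), the receptor for PDGF-A, was a low transcript. Its 251 UMIs gave 238.9 CPM (exact Poisson interval 210 to 270) against 0.523 CPM in the other barcodes. It was found in 132 fibroblasts (58.7%), in 1 of 441 T cells and in 0 of 238 macrophages, which allows up to 1.26% of them with a UMI. Among fibroblasts, 93 had no UMI, 77 had 1, 27 had 2 and 28 had 3 to 9. Dpt (chr1:164796644-164824266), which binds decorin and shapes collagen fibrils, was broader. It stood at 1057 CPM (996 to 1121) against 2.44, with a UMI in 212 fibroblasts (94.2%) and at most 27 in a cell. Cd34 (chr1:194938819-194961279), a sialomucin of stromal and progenitor cells, stood at 540.5 CPM against 3.84 and was found in 177 fibroblasts (78.7%).

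Cd81 (chr7:143052739-143067934), a tetraspanin, was the exception among these markers. Its 149 UMIs gave 141.8 CPM (120 to 167), below the 320 CPM of the other barcodes. Only 47 fibroblasts (20.9%) had a UMI, against 8.62% of T cells, 47.6% of B cells and 83.2% of macrophages, and after thinning the shares were 8.72%, 3.98%, 18.03% and 71.2%. A Cd81 UMI therefore separates fibroblasts poorly from leukocytes in this library. Its UMIs were bunched within the fibroblasts: 178 cells had none, the highest had 11, and the 10 highest cells held 47.7% of all. The variance over the mean per cell was 4.47 for Cd81, 1.94 for Pdgfra, 2.48 for Dpt and 2.30 for Cd34, where counting alone gives about 1 in cells of equal depth.

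**Figure D3:**
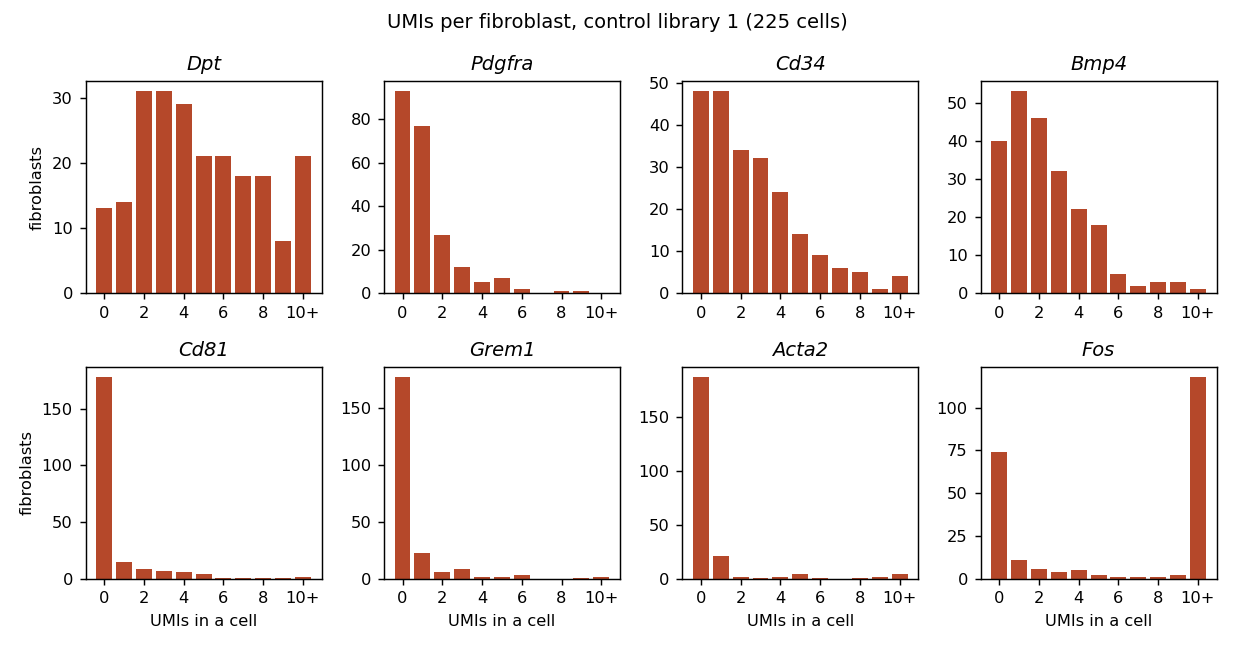
Number of fibroblasts of control library 1 (vertical axis, 225 in all, scale set per panel) with each UMI count (horizontal axis, 10 and above in 1 bar) for 8 genes. Dpt is at 0 in 13 cells and Pdgfra in 93, while Cd81, Grem1 and Acta2 are at 0 in 178, 177 and 187, and Fos is either at 0 (74 cells) or mostly at 5 or more (125 cells).

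Other surface proteins followed the stromal pattern only in part: 11 of 21 were higher and 1 lower, with a median log2 ratio of 2.30. Podoplanin (Pdpn) stood at 304.5 against 2.44 CPM and was found in 65.8% of fibroblasts. The atypical chemokine receptor Ackr3 was at 347.4 against 3.49 CPM, Cd248 at 178.9 against 0.523, and the adhesion molecule Vcam1 at 248.4 against 10.7. Ly6a (Sca-1) was at 1229 against 348.8 CPM and Thy1 at 55.2 against 41.6 CPM, both under the 4-fold limit; T cells are known to express both.

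Transcripts of BMP ligands were found in most of these fibroblasts. The ligand list of 15 genes also holds the protease Bmp1, counted among the collagen maturation enzymes too, and the activin chains Inhba and Inhbb. Of these 15 genes, 9 reached 10 CPM and 8 were higher, with a median log2 ratio of 5.45. Bmp4 (chr14:46383520-46390669) led with 524 UMIs, 498.7 CPM (457 to 543) against 1.66, and was found in 185 fibroblasts (82.2%) and in 0 of 441 T cells, which allows up to 0.680% of them with a UMI. Bmp5 stood at 194 CPM (52.4% of fibroblasts), Bmp2 at 154 CPM (31.1%), Bmp6 at 116 CPM (38.7%), Bmp7 at 67.6 CPM (22.7%) and Bmp3 at 15.2 CPM from 16 UMIs. Bmp4 and Bmp6 were spread evenly (variance over mean 1.76 and 1.09), while Bmp2 was more bunched (3.23, with 38.3% of its UMIs in 10 cells). Of the 5 leading ligands, 17 fibroblasts had none detected, 44 had 1, 69 had 2, 57 had 3, 32 had 4 and 6 had all 5. At this depth a missing ligand is not an absent one.

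The antagonists, secreted proteins that keep BMPs from their receptors, held the same count, 8 higher of 15 genes, with a median log2 ratio of 6.28. Of their 15 genes, 8 reached 10 CPM. The serine proteases Htra1 (985.9 against 4.97 CPM) and Htra3 (518.7 against 3.23), which bind TGF-beta family proteins, and the follistatin-like protein Fstl1 (685.2 against 1.83) led the list, and Twsg1 stood at 183 CPM. Grem1 (chr2:113746164-113758646), the antagonist that marks trophocytes, stood at 130 against 2.01 CPM and was found in 48 fibroblasts (21.3%). The highest cell held 19 of its UMIs, and 10 cells held 54.7%. Chordin (Chrd) gave 17 UMIs and noggin (Nog) 3. Of 17 receptors and targets 10 were higher (median 2.95). The receptors Bmpr1a (105.6 CPM), Bmpr2 (98.0) and Acvrl1 (153) were present and Bmpr1b gave 1 UMI. Of the BMP target genes, Id3 stood at 1188 against 72.0 CPM and Id1 at 135 against 29.7, while Id2, which leukocytes also use, was at 118 against 204.

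**Figure D4:**
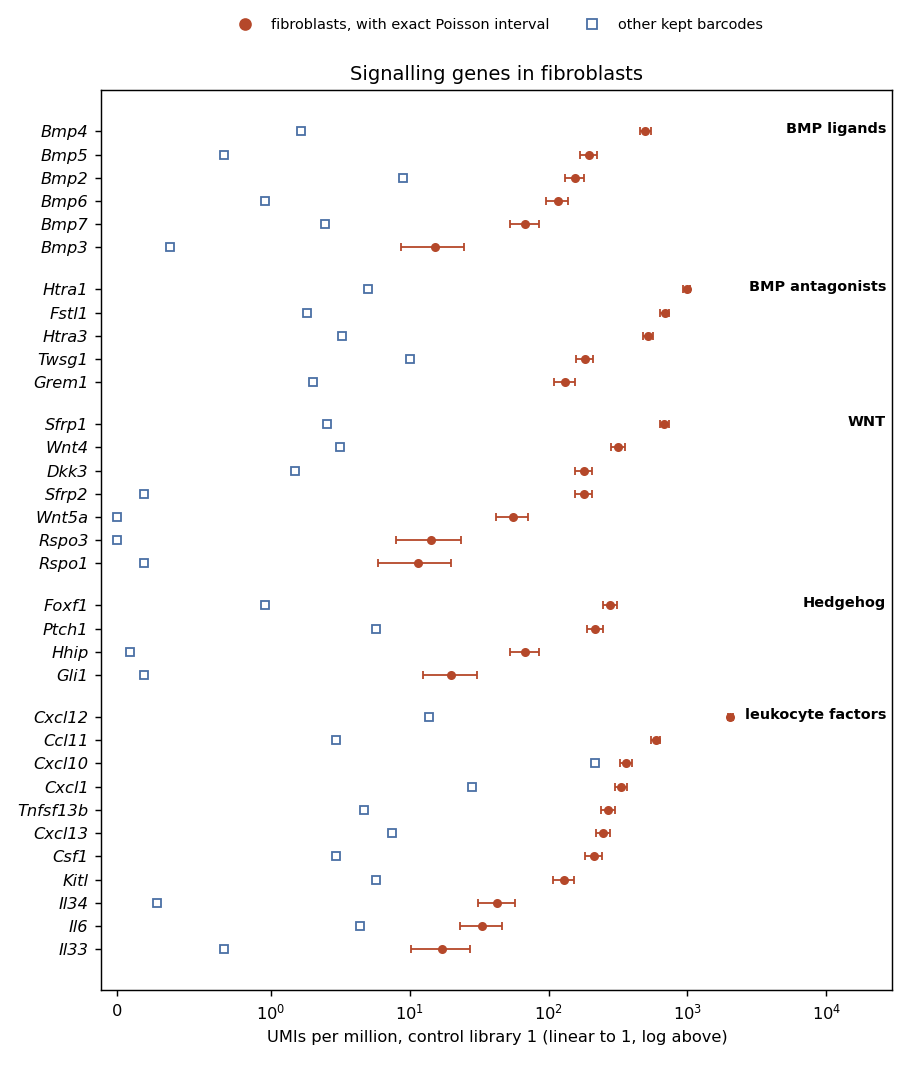
Level of BMP, WNT, Hedgehog and leukocyte-directed genes in the fibroblasts of control library 1 (filled points, exact Poisson intervals) and in the other kept barcodes (open squares), in CPM, linear up to 1 and logarithmic above. Bmp4 leads the BMP ligands at 498.7, Sfrp1 the WNT genes at 681 and Cxcl12 the leukocyte factors at 2036.

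WNT signals steer epithelial stem cells, and secreted inhibitors led this list. Of 23 genes 14 were higher and 1 lower, with a median log2 ratio of 6.39. The secreted inhibitors Sfrp1 (681 CPM), Dkk3 (179) and Sfrp2 (179) and the ligands Wnt4 (317) and Wnt5b (68.5) led, with the WNT secretion factor Wls at 307 CPM. Wnt5a, made by subepithelial cells, stood at 55.2 CPM from 58 UMIs and was at 0 in the other barcodes. Wnt2 was at 28.6 and Wnt2b at 21.9 CPM. Of the R-spondins, which boost canonical WNT signals, Rspo3 was at 14.3 and Rspo1 at 11.4 CPM, and Rspo2 and Rspo4 were at 0, which allows up to 2.86 CPM each. Hedgehog genes, through which the epithelium signals to mesenchyme, held 9 higher of 12 (median 6.91). The receptor Ptch1, itself a Hedgehog target, stood at 216 CPM, the target transcription factor Foxf1 at 276 CPM, the decoy receptor Hhip at 67.6 CPM and Gli1 at 19.98 CPM. Hhip was not spread over the cells: 211 had none, 10 cells held 94.4% of its UMIs, and 4 cells rich in smooth muscle transcripts held 50 of 71.

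Genes of the PDGF, FGF, TGF-beta and IGF axes numbered 19 higher of 27 (median log2 ratio 7.20), with Tgfb1 lower at 36.2 against 192 CPM. The IGF-binding proteins Igfbp7, Igfbp4 and Igfbp3 were at 5357, 3128 and 1553 CPM. The epithelial growth factors Fgf10 and Fgf7 stood at 77.1 and 52.3 CPM, and the EGF-family ligands epiregulin (Ereg) and neuregulin (Nrg1) at 328 and 47.6 CPM. In the retinoid list 6 of 12 were higher (median 6.37). The retinoic acid-making enzymes Aldh1a3, Aldh1a1 and Aldh1a2 stood at 127.5, 72.3 and 65.7 CPM, against 0.698, 0.872 and 1.395 CPM in the other barcodes.

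The fibroblasts also held transcripts of factors that attract or feed leukocytes. Among chemokines 7 of 19 were higher and 2 lower (Cxcl2 and Cxcl9), with a median log2 ratio of 1.19. Cxcl12, which retains leukocytes through CXCR4, stood at 2036 against 13.7 CPM and was found in 92.9% of fibroblasts and 2.94% of macrophages. The eosinophil attractant Ccl11 stood at 592 against 2.97 CPM in 44.4% of cells. The B cell attractant Cxcl13 was at 247 against 7.50 CPM, from 28 cells, and the 10 highest held 82.3% of its 260 UMIs. Cxcl10 was at 362 against 215 CPM, under the 4-fold limit, and 10 cells held 77.6% of its UMIs. The lymphoid stroma genes Ccl21a and Madcam1 were at 0 and Ccl19 gave 1 UMI. Among cytokines and leukocyte growth factors 9 of 19 were higher and 2 lower (median 3.71). The macrophage growth factors Csf1 and Il34 stood at 211 against 2.97 and 42.8 against 0.262 CPM, and a Csf1 UMI was found in 57.8% of fibroblasts and 1.81% of T cells. The B cell survival factor Tnfsf13b (BAFF) stood at 267 against 4.71 CPM and stem cell factor (Kitl) at 129 against 5.76. Complement held 9 higher of 12 (median 3.91), with the inhibitor Serping1 at 1757 CPM, C1s1 at 610, C4b at 462, C1ra at 429 and C3 at 149. Of 13 interferon and antigen presentation genes none was higher (median -0.93), and Cd74 and H2-Ab1 of the class II pathway were lower.

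Of 24 mesenchymal transcription factors 15 were higher (median log2 ratio 6.74), and Ebf1, which B cells need, was lower. Tcf21, a mesenchymal regulator, stood at 1488 against 6.45 CPM and was found in 90.2% of fibroblasts. The gut mesenchyme factors Foxf1 (276 CPM), Pitx1 (271) and Nkx2-3 (243) were found in 60.9%, 64.9% and 57.3%. Of 29 Hox genes, which keep a cell's position along the body axis, 22 were under 10 CPM and the other 7 were higher (median 5.17). Among these, Hoxa10 stood at 89.5 CPM, Hoxa11 at 48.5, Hoxd11 at 40.9, Hoxa13 at 24.7 and Hoxd13 at 20.9. The genes named here with a level are posterior members of the A and D clusters. No Hoxb gene passed 9 UMIs. All 10 contractile genes were higher (median 6.52), but the broad ones were actin regulators of many cells, such as caldesmon (Cald1, 893 CPM, 90.7% of fibroblasts) and tropomyosin 1 (Tpm1, 397 CPM). Acta2 stood at 196 CPM from 38 cells, and at 84.8 CPM without 4 cells described below. Cell cycle genes held none higher and 6 lower of 12 (median -4.07), with Mki67 at 0 and Top2a at 2 UMIs.

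Receptors through which nerves or stress hormones could reach these cells were looked at because the study concerns stress. Of 18 neurotransmitter and neuropeptide receptors and trophic factors 8 reached 10 CPM and 6 were higher (median log2 ratio 4.19). The CGRP and adrenomedullin receptor chain Calcrl stood at 209 against 7.41 CPM. Its partner Ramp2, which shapes an adrenomedullin receptor, was at 206.5 against 4.62, and Ramp1, which shapes the CGRP receptor, stood at 13.3 against 49.0, within the 4-fold limit. The endothelin receptor Ednra stood at 80.9 against 0.611 CPM and neurotrophin 3 (Ntf3) at 50.4 against 0.436. The beta-adrenergic receptor Adrb1 gave 14 UMIs. Of 10 glucocorticoid receptor and target genes 3 were higher (median 0.95): Klf9 (358 against 23.3 CPM), Hsd11b1 (322 against 18.1), which makes active corticosterone from its inactive form, and Zbtb16 from 27 UMIs. The receptor Nr3c1 itself was at 181 against 115.5 CPM, and the target Tsc22d3 at 298 against 272.

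Immediate early genes, which cells switch on quickly after a stimulus, varied widely from fibroblast to fibroblast. Of 17 immediate early and heat shock genes (median log2 ratio 0.81) only Fos (5199 against 1000 CPM), Jun (3066 against 574) and Egr1 (1712 against 162) passed the 4-fold limit over the other barcodes. Within the fibroblasts, 74 had no Fos UMI and 125 had 5 or more, with up to 120 in a cell and a variance over the mean of 37.1. Fos was found in 59.4% of T cells, 46.2% of B cells and 73.1% of macrophages, against 67.1% of fibroblasts. The 125 fibroblasts with 5 or more Fos UMIs and the 100 with fewer had median depths of 4864 and 4782.5 UMIs. Of the 350 UMIs of the neutrophil attractant Cxcl1, 348 lay in the 125 cells, a ratio of 128 in CPM (35.2 to 1062). The same held for Il6 (35 and 0 UMIs), Il33 (17 and 1), Atf3 (416 and 4) and Egr1 (1743 and 56). Wnt5a (14 and 44 UMIs) and Cxcl14 (31 and 72) leaned to the cells with little Fos. Structural genes differed little between the sides, with ratios of 1.18 for Dcn, 0.908 for Col3a1 and 0.830 for Pdgfra (0.643 to 1.07). These side genes were picked by ratio in the same cells that were divided.

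The cells were divided by which of 2 marker lists had more UMIs. The subepithelial list (F3, Foxl1, Sox6, Bmp3, Bmp5, Bmp7, Wnt5a, Nrg1, Tnc) had 612 UMIs in all and the adventitial list (Dpt, Pi16, Dpp4, Ly6c1, Clec3b, Col15a1, Sema3c, Cd55, Anxa3) had 4452. More UMIs of the adventitial list were found in 207 fibroblasts and more subepithelial UMIs in 14, with 2 tied and 2 at 0 for both. The adventitial list is carried by Dpt and Clec3b, which were found in 94.2% and 90.7% of cells. Without those 2 genes the subepithelial side holds 37 cells, a choice made after seeing the data. Pi16, which marks the adventitial cells of many organs, gave 21 UMIs in 5 cells, and Dpp4 gave 8 UMIs, while mucosal Adamdec1 and Bmp4 were found in 88.9% and 82.2% of cells. More UMIs of the adventitial list therefore do not name a cell adventitial. The trophocyte list summed to 1542 CPM against 329, led by Sfrp1, and Cd34, also on it, is shared by adventitial cells.

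The 14 cells differed from the other 211 in genes outside both lists, at median depths of 4585 and 4862 UMIs. Pdgfra was found in 13 of the 14, and its level was 4.04-fold that of the others (2.91 to 5.52). Bmp2 gave 55 UMIs in the 14 cells and 107 in the 211, a ratio of 8.15 (5.78 to 11.4), and Bmp4 a ratio of 1.42 (1.01 to 1.94). Procr, whose promoter is printed above with its AP-1 match, gave 39 UMIs in the 14 cells and 28 in the others. The prostaglandin-making Ptgs2 gave 70 and 133, and the matrix protein Tgfbi 70 and 87. On the other side, the 14 cells held 0 of 568 Cd34 UMIs, 0 of 622 Ccl11 UMIs, 0 of 485 C4b UMIs, 0 of 156 C3 UMIs, 0 of 137 Grem1 UMIs and 1 of 2365 Mgp UMIs. Dcn was at 0.3 of the level in the others (0.263 to 0.341). 1 of the 14 is also among the 4 cells rich in smooth muscle transcripts described below, with 95 such UMIs and no Pdgfra UMI. Leaving it out was a choice made after seeing the data. The ratios were then 4.32 for Pdgfra (3.11 to 5.90), 8.71 for Bmp2 (6.15 to 12.2) and 0.308 for Dcn. High Pdgfra and Bmp2 thus stood beside no detected Cd34 or Grem1 in the other 13 cells.

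Pdgfra by itself gave a softer division. The 55 fibroblasts with 2 or more Pdgfra UMIs (median depth 5188) were set against the 170 with 0 or 1 (median 4697). Nrg1 gave 37 and 13 UMIs, a ratio of 7.98 (4.14 to 16.4), Wnt5a a ratio of 3.45 (1.99 to 6.03), Tnc 3.39 (2.27 to 5.07), F3 2.87 (1.83 to 4.50) and Bmp2 2.19 (1.58 to 3.02). Bmp5 and Bmp7 stood at ratios of 1.70 (1.26 to 2.27) and 1.83 (1.09 to 3.01). Penk, the enkephalin precursor, gave 58 and 11 UMIs. Dpt did not separate the sides, with a ratio of 0.995 (0.867 to 1.14).

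Cells with and without a Cd81 UMI differed in single genes more than in whole lists. The 47 cells with one had a median depth of 5489 UMIs, the other 178 of 4694. Complement C3 gave 115 and 41 UMIs, a ratio of 8.67 (6.02 to 12.7), Sfrp2 a ratio of 4.66 (3.45 to 6.33) and Grem1 76 and 61 UMIs, a ratio of 3.85 (2.71 to 5.49). Of the 115 C3 UMIs, 18 lay in the barcode that held all the mesothelial UMIs, the most of any cell. That barcode, with 5 Cd81 UMIs, was kept in these ratios. The chemokine scavenger Ackr4, which marks trophocytes in the gut, gave 12 UMIs in the 47 cells and 0 in the 178. Of these 12 UMIs, 11 lay in only 4 cells, and the interval below takes no account of that bunching. Of the 6 trophocyte list genes other than Cd81, the interval of the ratio lay above 1 for 3 (Grem1, Ackr4 and Cd34 at 1.38), below 1 for 1 (Sfrp1, 0.673) and held 1 for 2. Among complement genes it lay above 1 for C3 and Cd55 (1.44) and below 1 for Serping1 (0.855), while C4b (1.03), C1s1 (0.978) and C1ra (0.986) were near 1. Cxcl13 had a ratio of 2.65 but came from 6 and 22 cells. Penk gave 49 and 20 UMIs here as well. Acta2 lay on the other side with 5 and 201 UMIs, a ratio of 0.0769 (0.0247 to 0.183), or 0.183 (0.058 to 0.445) without the 4 cells of smooth muscle markers described next, and so did Bmp2 with 0.486 (0.295 to 0.765). Pdgfra (0.9502, 0.697 to 1.28) and Dpt (1.01) did not separate the sides. From the side of Grem1, the 48 cells with a UMI held 0 of 50 Nrg1 UMIs, 1 of 58 Wnt5a UMIs and 1 of 103 Cxcl14 UMIs. Across the 225 cells, which share 1 library and differ in depth, Pearson's r on log-normalised values was 0.19 for Cd81 with Grem1, 0.19 for Pdgfra with Bmp5 and -0.02 for Pdgfra with Cd81.

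Acta2 marked a group that was of more than 1 kind. Of the 17 cells with 2 or more Acta2 UMIs, 4 held more UMIs of the smooth muscle list (30 to 124) than of the 4 matrix genes (7 to 41), and no other cell of the 225 did. These 4 cells (998 to 5464 UMIs) held 118 of the 206 Acta2 UMIs, 91 of 159 Tagln, 35 of 40 Myh11 and 50 of 71 Hhip UMIs. They held no UMI of Pdgfra, Cd34 or Cxcl12 and 1 of Dpt. Their own markers thus go against the name fibroblast, although they meet the rule. Without them, a comparison chosen after seeing the data, Acta2 stood at 84.8 CPM in place of 196, Hhip at 20.2 in place of 67.6, Myh11 at 4.82 and the smooth muscle list at 219 in place of 504. The other 13 cells had Dpt in all 13, Bmp4 in 13 and Cxcl12 in 12, and Myh11 in none. Set against the 208 cells with 0 or 1 Acta2 UMIs, these 13 had ratios of 32.1 for Tagln (18.9 to 56.1), 7.13 for F3 (4.30 to 11.6), 5.52 for Tnc (3.45 to 8.59), 2.87 for Bmp2 (1.79 to 4.42) and 0.388 for Cd34 (0.211 to 0.657). Hhip had a ratio of 1.62 there, from 2 and 19 UMIs. None of the 149 Cd81 UMIs, 260 Cxcl13 UMIs or 188 Sfrp2 UMIs lay in any of the 17 cells. Of the 13 cells with no Dpt UMI (median 2538 UMIs), 3 are among the 4, and these 3 hold 71 of that group's 74 Acta2 UMIs.

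Clustering the 225 fibroblasts by their own expression gave groups that follow the immediate early genes first. At the lowest Leiden resolution (0.3) there were 2 clusters of 114 and 111 cells, with summed immediate early and heat shock levels of 34138 and 4303 CPM. Fos was found in 114 of 114 and in 37 of 111 cells, while median depth (4889 and 4788 UMIs) and mitochondrial share (3.75% and 3.87%) were close. At resolution 0.6 there were 5 clusters of 50, 50, 48, 46 and 31 cells, left unnamed here, since their leading genes were found in the cells that were clustered. Their immediate early levels were 34158, 3795, 3219, 38769 and 18731 CPM. Cluster 1 held 83.0% of Acta2, 74.6% of Hhip and 48.1% of Bmp2 UMIs, with all 4 cells rich in smooth muscle transcripts among its 50, and cluster 3 held 76.9% of C3, 69.6% of Cxcl13 and 55.5% of Grem1 UMIs. The barcode with all the mesothelial UMIs was in cluster 3 as well. Cluster 2 held 47.9% of Sfrp2 and 40.8% of Osr1 UMIs, and cluster 0 held 75.4% of Ptgs2 UMIs. Cluster 4, the smallest, held 34.4% of Ccl11 UMIs. Cxcl10 lay in cluster 0 (189 UMIs in 23 cells) and cluster 4 (152 UMIs in 6 cells, 116 of them in 2 cells). Pdgfra was found in 22 to 33 cells and Dpt in 30 to 49 cells of every cluster. Of the 14 cells with more subepithelial UMIs, 9 were in cluster 1 and 5 in cluster 0. With the 17 immediate early and heat shock genes removed before clustering, a choice made after seeing the data, there were again 5 clusters. The number alone does not show whether they held the same cells or still followed Fos.

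**Figure D5:**
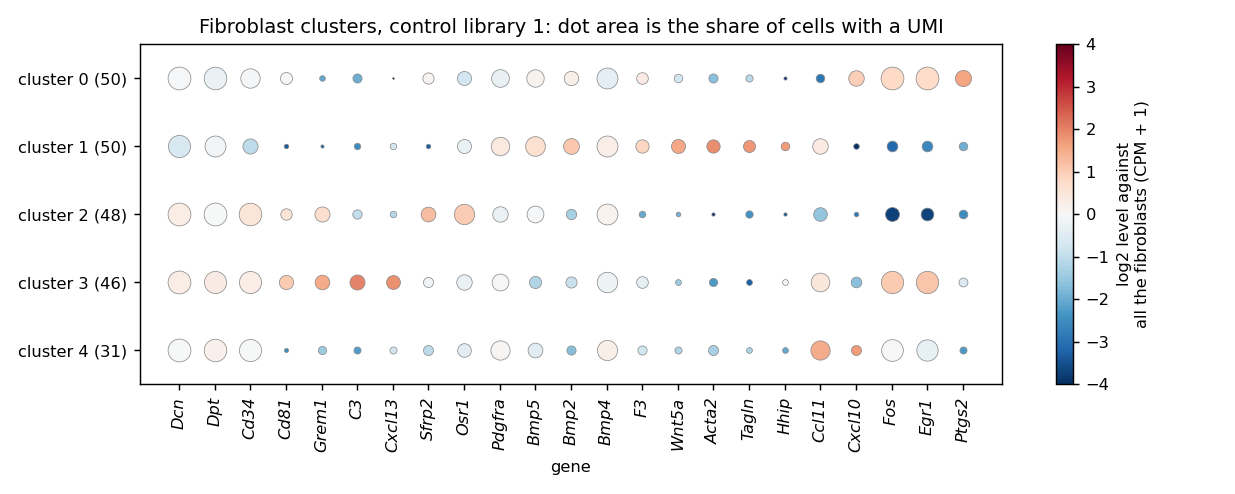
Genes (horizontal axis) by cluster (vertical axis, number of cells in brackets) for the 225 fibroblasts at Leiden resolution 0.6, with dot area for the share of cells with a UMI and colour for the log2 ratio of the cluster's CPM + 1 to that of all 225. Acta2, Hhip and Bmp2 are highest in cluster 1, Cxcl13, C3 and Grem1 in cluster 3, Sfrp2 and Osr1 in cluster 2, and Pdgfra is present in all 5.

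The 12 fibroblasts of the other libraries are too few for a profile, and their genes are given as UMIs. The 5 of control library 2 held 13169 UMIs in all (624 to 7122 each), the 6 of stress library 1 held 29295 and the 1 of stress library 2 held 10516. Pdgfra was found in 3, 4 and 1 of them, and Dpt in 3, 6 and 1. The leukocyte list summed to 303.7, 512 and 190.2 CPM in them, against 20.9 CPM in control library 1. The macrophage list, whose C1q genes the rule caps, summed to 227.8, 1160.6 and 0 CPM, against 35.2. Of the 6 cells of stress library 1, 5 had no Ptprc UMI. The low leukocyte level given further up is thus that of control library 1 alone. The control library 2 cells had Adamdec1 in 5 of 5 (54 UMIs), Bmp4 in 5 of 5 (10 UMIs), Cxcl12 in 5 of 5 (36 UMIs) and Cd34 in 0 of 5. The stress library 1 cells had Cd34 in 6 of 6 (28 UMIs), the microfibril gene Mfap5 in 6 of 6 (86 UMIs), Ly6c1 in 6 of 6 (24 UMIs), Cd81 in 5 of 6 (19 UMIs) and Pi16 in 2 (11 UMIs). Adamdec1 and Bmp4 gave 2 and 1 UMIs there, each in 1 cell. The 1 cell of stress library 2 had 6 Cd34, 10 Mfap5 and 6 Cd81 UMIs and none of Adamdec1 or Bmp4. In control library 1, Adamdec1 was found in 88.9% of fibroblasts and Mfap5 in 62.7%. Grem1 gave 0 UMIs in all 12. The lists put 2 of 5, 0 of 6 and 0 of 1 cells on the subepithelial side. Fewer fibroblasts in the tissue and fewer fibroblasts passing the sort cannot be told apart, and with these counts neither can the library and the treatment.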

How the data were processed

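Single-cell RNA-seq counts of CD45-sorted colon cells were analysed in 4 libraries (2 control, 2 stress). The values are UMI counts in the authors' deposited filtered 10x matrices. Cell Ranger 5 and 5.0 and the build mm10 are named in the submitters' processing notes, while the matrix headers name version 3.1.0; no source used here gives the gene annotation's release. Each deposited matrix starts at 500 UMIs per barcode and holds 2941, 6124, 10259 and 5591 barcodes. Members and gene lists were chosen with earlier results of these data known. Fibroblast UMIs were summed per library, with exact Poisson and Clopper-Pearson intervals (95%). No doublet was removed: Scrublet's automatic threshold marked at most 0.314% of a library, so an expected share (0.8% per 1000 barcodes) was marked instead and left out as an alternative. Clusters used 1000 variable genes, 15 components and Leiden. Named genes are the rule and marker genes, all members of the fixed lists, the 20 largest ratios at 100 CPM, the 10 highest genes past 4-fold and, per division, the 10 largest ratios each way at 50 UMIs or more. The ratio interval was tested on simulated Poisson counts, which lack the bunching of UMIs in few cells seen for many genes here. Its coverage for such bunched genes was not tested. Thinning was tested on the fibroblasts of control library 1 themselves. Work was done in scanpy 1.11.5 with igraph 0.11.9, scipy 1.17.1, numpy 2.4.6, pandas 2.3.3, matplotlib 3.10.9 and Python 3.11.15.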

Additional observations from a re-analysis of the deposited data

How the results depend on the processing

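No paired analysis was possible because no groups are compared: 225 of the 237 cells come from 1 library. Over 38 values and 240 alternatives, 216 stayed within their spread and 24 moved beyond it. Control library 1 held 220 to 242 fibroblasts under every limit tried, while control library 2 fell from 5 to 3 when barcodes were thinned before the rule. The mean of each cell's own CPM gave 1150 for Dpt in place of 1057, 284 for Acta2 in place of 196 and 314 for Cxcl13 in place of 247. Without the 4 cells with more smooth muscle than matrix UMIs (added after seeing the data), Acta2 stood at 84.8 CPM. The shares with a UMI follow depth: thinned and unthinned values were 20.6% and 58.7% for Pdgfra, 62.8% and 94.2% for Dpt, and 8.72% and 20.9% for Cd81. Pooled over libraries, leaving out 1 library at a time gave 58.9 to 66.7% for Pdgfra, 83.3 to 94.4% for Dpt and 21.2 to 58.3% for Cd81 (59.1%, 93.7% and 22.8% with all), and the far value of each came from the 12 cells left without control library 1, where Bmp4 was found in 6 of 12 (80.6% of all 237). Leiden gave 2 clusters at resolution 0.3, 5 at 0.6 and 8 at 1.0. The subepithelial side held 14 cells, and 37 with Dpt and Clec3b taken off the adventitial list, chosen after seeing the data. Depth limits any single cell: a gene with no UMI in a cell of this depth is not shown to be absent.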
